A study of Arabidopsis thaliana with 12 samples.

Results

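UPOX (AT2G21640), GR1 (AT3G24170), GR (AT3G54660), CCS (AT1G12520) and MSRB9 (AT4G21850) are 5 nuclear redox and oxidative stress genes of Arabidopsis thaliana. They were chosen by name, with earlier results of these data known. Counts set beside all genes therefore describe these 5 genes and are no test of them as a set. They are described here among 16550 genes measured in roots, and each is represented by 1 row of the table. The plants were wild type, accession Col-0, and were kept in hydroponic culture for 32 days before 7 days of treatment, so that roots were taken at 39 days. The 4 groups held 3 arrays each, which the submitters describe as independent biological replicates. Control roots had neither treatment. Arsenic roots received 250 µM arsenate (AsV, as Na2HAsO4), hypoxia roots stood in hypoxic nutrient medium, and combination roots received both. The oxygen level is not given in the sources used here, and each array measured a whole root sample rather than a cell type. In such bulk samples fewer cells of a type and less RNA per cell cannot be told apart.

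As background, aerobic cells make superoxide and hydrogen peroxide, and plants remove them with superoxide dismutases, catalases, peroxidases and the ascorbate and glutathione cycle. Glutathione reductases use NADPH to return oxidised glutathione to its reduced form, and glutathione is also the building block of the phytochelatins that bind arsenic. The copper chaperone CCS loads copper into copper/zinc superoxide dismutases. Methionine sulfoxide reductases repair oxidised methionine in proteins. UPOX is a mitochondrial protein whose transcript is widely used as a marker of oxidative stress.

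Signals were log2 values from the RMA method, and a change is a difference of log2 group means, so that a change of 1 is a doubling of signal. A gene was called changed when its adjusted p in limma was under 0.05, over all 16550 genes. With arsenic against control, UPOX, GR1 and CCS rose, MSRB9 fell and GR did not pass. Over all genes 8.34% rose and 9.58% fell in that comparison. With hypoxia against control, UPOX rose, MSRB9 fell and the other 3 genes did not pass, where 10.8% of all genes rose and 13.7% fell. With the combination against control, UPOX, GR1 and CCS rose and MSRB9 fell, where 13.0% of all genes rose and 14.6% fell. These comparisons share the 3 control arrays.

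In the combination against arsenic none rose and UPOX and GR1 fell, where 5.33% of all genes rose and 6.67% fell. In the combination against hypoxia UPOX rose and none fell, where 1.88% of all genes rose and 1.58% fell. In hypoxia against arsenic none rose and UPOX and GR1 fell, where 9.67% of all genes rose and 12.3% fell. The interaction, which is the change with arsenate under hypoxia minus the change with arsenate without it, was negative for UPOX and GR1 and positive for none of the 5, where 1.34% of all genes were positive and 1.43% negative. The split between rising and falling genes over the whole table depended on how the arrays were scaled. With each array re-centred on its own median, 3654 genes rose and 1665 fell with hypoxia against control, in place of 1791 and 2269. The same re-centring gave 3108 and 2014 in place of 2158 and 2420 for the combination against control, and 1296 and 871 in place of 882 and 1104 for the combination against arsenic. It gave 187 and 311 in place of 311 and 262 for the combination against hypoxia, 3021 and 1319 in place of 1601 and 2037 for hypoxia against arsenic, and 152 and 262 in place of 221 and 236 for the interaction.

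**Figure D1:**
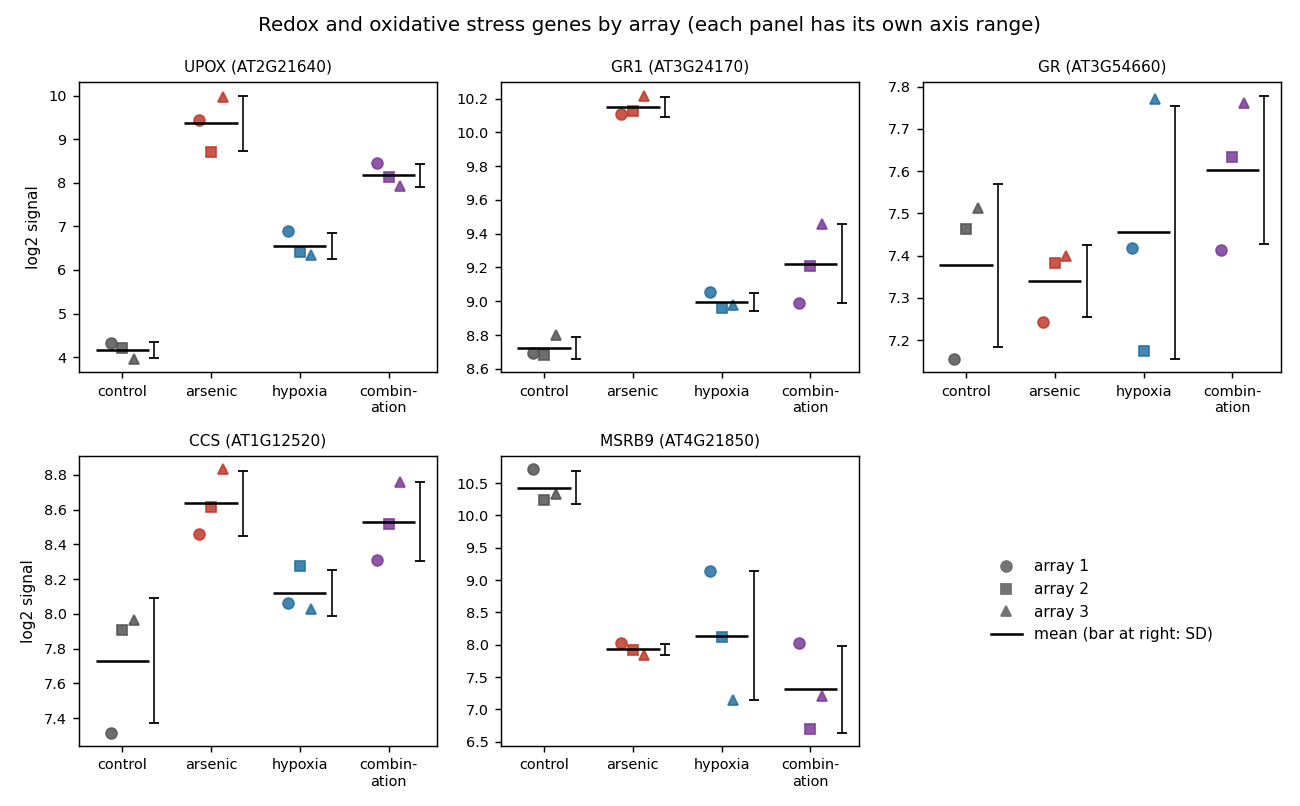
Log2 signal of the 5 genes on each of the 12 arrays, with 1 panel per gene, the 4 groups on the horizontal axis, 1 marker per array, and the group mean with its SD (n = 3) beside the points. UPOX lies between 3.96 and 4.32 in the control and between 8.71 and 9.97 with arsenate, MSRB9 runs the other way from 10.24 or more in the control to 8.02 or less with arsenate, and GR stays between 7.16 and 7.77 on all arrays.

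UPOX had the widest swing of the 5 genes. Its log2 signal on control arrays 1, 2 and 3 was 4.32, 4.20 and 3.96, a mean of 4.16 ± 0.19 (SD, n = 3). With arsenate it was 9.44, 8.71 and 9.97, a mean of 9.37 ± 0.64 (SD, n = 3). Every arsenic array lay far above every control array. With hypoxia alone it was 6.90, 6.42 and 6.33, a mean of 6.55 ± 0.31 (SD, n = 3), and in the combination it was 8.46, 8.13 and 7.92, a mean of 8.17 ± 0.27 (SD, n = 3). The 4 groups did not overlap, and their order was control, hypoxia, combination, arsenic. On the linear scale the mean signals in that order were 18.0, 95.3, 292 and 705.

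Every neighbouring pair of groups in the order of UPOX passed the test. Against control, UPOX rose 37.1-fold with arsenate (log2 change 5.21, SE 0.28, 95% interval 4.61 to 5.81, adjusted p = 3.91e-07), the 7th largest rise of all genes. It rose 5.25-fold with hypoxia (2.39, interval 1.79 to 2.99, adjusted p = 6.35e-05) and 16.1-fold in the combination (4.01, interval 3.41 to 4.61, adjusted p = 8.39e-07). In place among all rises these were the 99th and the 21st. Adding arsenate to hypoxic roots raised UPOX 3.08-fold (1.62, interval 1.02 to 2.22, adjusted p = 0.00966), the 11th largest rise of that comparison. Adding hypoxia to arsenate lowered it, with a log2 change of -1.20 (interval -1.80 to -0.60, adjusted p = 0.0135) and a gap of 0.24 between the lowest arsenic array and the highest combination array. That fall did not pass without arsenic array 3, the highest of the arsenic arrays (-0.90, adjusted p = 0.0618). Hypoxia alone also lay below arsenic alone, with a change of -2.82 (adjusted p = 3.19e-05).

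UPOX belongs to a list of 5 transcripts known to rise under several kinds of reactive oxygen, of which 4 were measured. The other measured entries were AT1G19020, AT1G05340 and AT1G57630. Of all genes, 8.34% rose with arsenate, 10.8% with hypoxia and 13.0% in the combination. With arsenate UPOX rose and no other entry passed, the median change being 0.75 against -0.01 over all genes. Their changes with arsenate were 0.84 (adjusted p = 0.254), 0.65 (adjusted p = 0.344) and 0.54 (adjusted p = 0.344). With hypoxia UPOX and AT1G57630 (1.55, adjusted p = 0.00619) rose, with a list median of 1.39 against 0.07. AT1G05340 (1.22, adjusted p = 0.0531) and AT1G19020 (1.09, adjusted p = 0.103) did not pass there. Without control array 1, AT1G05340 (1.58, adjusted p = 0.0255) and AT1G19020 (1.64, adjusted p = 0.0136) both passed with hypoxia, and AT1G19020 also passed with arsenate (1.38, adjusted p = 0.0401). Array 1 was the highest in every group for AT1G05340, and in all but the arsenic group for AT1G19020. Without hypoxia array 3 both passed with hypoxia as well (1.69, adjusted p = 0.00879, and 1.52, adjusted p = 0.0321), and AT1G05340 passed without combination array 1 (adjusted p = 0.0403) and with re-centred arrays (adjusted p = 0.0238), as did AT1G19020 (adjusted p = 0.0456). In the combination UPOX was the 1 entry that passed on all arrays together, with a list median of 0.91 against 0.09, and AT1G57630 (0.87, adjusted p = 0.0824) passed without combination array 3 (1.29, adjusted p = 0.00842).

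UPOX is also an entry of a list of 28 genes known to respond when mitochondrial respiration is disturbed, of which 9 were measured. With arsenate 8 of these 9 rose and none fell, with a median change of 4.27 against -0.01 over all genes. The shares of all genes that rose and fell there were 8.34% and 9.58%. AT5G51440 rose by 5.75 (adjusted p = 1.74e-06), AT2G04050 by 5.50 (adjusted p = 4.95e-06) and AT2G41730 by 4.95 (adjusted p = 1.48e-05). In the control AT2G04050 had log2 signals of 2.62, 2.47 and 2.02 and AT2G41730 of 1.68, 1.94 and 1.83, all below the first quartile of every array (3.06 to 3.18 over the arrays), so these genes were not shown to be above background there and the size of their changes is uncertain. Among the others, named here after their values were seen, GSTU25, a glutathione S-transferase, rose by 4.27 (adjusted p = 0.000192). The alternative NAD(P)H dehydrogenases NDB4 and NDB2, which feed electrons into the respiratory chain, rose by 2.87 (adjusted p = 7.64e-05) and 2.70 (adjusted p = 4.51e-05). AT5G09570 rose by 1.00 (adjusted p = 0.0166), a call lost without control array 2 (0.0662), arsenic array 1 (0.0747) or arsenic array 3 (0.0708). The control means of NDB4 (3.11) and AT5G09570 (3.07) were near that first quartile too. On single control arrays GSTU25 lay below it (array 3, 2.75) and AT5G51440 near it (array 1, 3.06). The 1 measured entry that did not pass was NDB3 (-0.02, adjusted p = 0.957), whose group means of 2.81 to 2.98 were also below that quartile, so that no change of it could be read with confidence.

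Under hypoxia the same list divided. With hypoxia alone 4 of 9 rose and none fell, with a median of 0.64 against 0.07 over all genes. In the combination 4 of 9 rose and none fell, with a median of 0.82 against 0.09. Of all genes, 10.8% rose and 13.7% fell with hypoxia, and 13.0% rose and 14.6% fell in the combination. The list genes that rose were UPOX, AT5G51440, AT2G04050 and AT2G41730 in both comparisons. AT2G41730 rose by 4.08 with hypoxia (adjusted p = 2.99e-05) and by 3.11 in the combination (adjusted p = 0.000156). AT5G51440 rose by 3.63 (adjusted p = 2.58e-05) and by 4.81 (adjusted p = 1.95e-06), and AT2G04050 by 2.19 (adjusted p = 0.00189) and by 3.49 (adjusted p = 4.32e-05). In the combination GSTU25 had a change of 0.41 (adjusted p = 0.613), NDB4 0.82 (adjusted p = 0.0757) and NDB2 0.32 (adjusted p = 0.436). The intervals of GSTU25 and NDB2 were -0.76 to 1.59 and -0.29 to 0.92. NDB4 passed without arsenic array 2 (adjusted p = 0.0198). NDB2 passed as lower with hypoxia alone when hypoxia array 1 was left out (-0.73, adjusted p = 0.0214).

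Setting the combination against arsenic, 5.33% of all genes rose and 6.67% fell. Of the 9 mitochondrial stress genes 6 fell and none rose, with a median of -1.84 against 0.05 over all genes. They included GSTU25 (-3.86, adjusted p = 0.000569), NDB2 (-2.38, adjusted p = 0.000165) and NDB4 (-2.05, adjusted p = 0.00113). The other 3, named after their values were seen, were AT2G04050 (-2.00, adjusted p = 0.00624), AT2G41730 (-1.84, adjusted p = 0.0142) and UPOX. The call of AT2G41730 was lost without arsenic array 3 (adjusted p = 0.0664) or combination array 2 (0.0691). AT5G51440 (-0.94, adjusted p = 0.129) passed without hypoxia array 1 (0.0339), and AT5G09570 (-0.80, adjusted p = 0.0612) without arsenic array 2 (0.00591). With the combination against hypoxia UPOX was the 1 of 9 that rose, where 1.88% of all genes rose and 1.58% fell. Without hypoxia array 1, AT5G51440 (1.66, adjusted p = 0.00855) and NDB2 (1.05, adjusted p = 0.0123) passed there too, and AT2G04050 (1.30) passed without arsenic array 2 (adjusted p = 0.0480).

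The glutathione reductase genes differed from each other. GR1, which codes for the cytosolic and peroxisomal enzyme, had a log2 signal of 8.69, 8.68 and 8.80 on the control arrays, a mean of 8.72 ± 0.065 (SD, n = 3). With arsenate it was 10.11, 10.13 and 10.22, a mean of 10.15 ± 0.059 (SD, n = 3). The arsenic arrays were tightly grouped and lay above every other array. With hypoxia it was 9.06, 8.96 and 8.98 (SD 0.052, n = 3), and in the combination 8.99, 9.21 and 9.46, a mean of 9.22 ± 0.23 (SD, n = 3). The hypoxia arrays lay just above the control arrays, and the combination arrays overlapped the hypoxia arrays.

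GR1 rose 2.69-fold with arsenate against control (log2 change 1.43, SE 0.14, interval 1.13 to 1.73, adjusted p = 3.20e-05), the 286th largest rise. Its change with hypoxia was 0.27 (interval -0.03 to 0.57, adjusted p = 0.173), although the groups did not overlap and were 0.16 apart. That change passed when the arrays were re-centred on their medians (0.45, adjusted p = 0.0246), a scaling that also moved the median change of all genes from 0.07 to 0.25. In the combination GR1 rose 1.41-fold against control (0.50, interval 0.20 to 0.80, adjusted p = 0.0174). That call was lost without control array 1 (adjusted p = 0.0540), control array 2 (0.0616) or combination array 3 (0.0745). The combination lay below arsenic alone by a wider margin, with a change of -0.93 (interval -1.23 to -0.63, adjusted p = 0.000870), and the combination against hypoxia gave 0.22 (interval -0.08 to 0.53, adjusted p = 0.410). Hypoxia alone was lower than arsenic alone, with a change of -1.15 (adjusted p = 0.000135). In the order control, hypoxia, combination, arsenic, the last pair of neighbours passed and the other pairs did not.

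GR, which codes for the enzyme of plastids and mitochondria, had a log2 signal of 7.16, 7.46 and 7.51 in the control, 7.24, 7.38 and 7.40 with arsenate, 7.42, 7.18 and 7.77 with hypoxia, and 7.41, 7.63 and 7.76 in the combination. The means were 7.38 ± 0.19, 7.34 ± 0.086, 7.46 ± 0.30 and 7.60 ± 0.18 (SD, n = 3 each). The groups overlapped, except that the lowest combination array lay 0.016 above the highest arsenic array. No comparison of GR passed. Its change was -0.04 with arsenate (interval -0.41 to 0.34, adjusted p = 0.922), 0.08 with hypoxia (-0.30 to 0.45, adjusted p = 0.771) and 0.23 in the combination (-0.15 to 0.60, adjusted p = 0.366). The combination differed from arsenic by 0.26 (-0.11 to 0.64, adjusted p = 0.389) and from hypoxia by 0.15 (-0.23 to 0.52, adjusted p = 0.689), and hypoxia differed from arsenic by 0.11 (-0.26 to 0.49, adjusted p = 0.677). The range of its 4 group means, 0.26, was larger than that of 14.5% of all genes. The ranges of UPOX (5.21), MSRB9 (3.12), GR1 (1.43) and CCS (0.90) were larger than those of 99.9%, 98.7%, 90.1% and 77.2% of genes.

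Of 27 genes listed for the glutathione and ascorbate cycle 7 were measured, GR1 and GR included. Of all genes, 8.34% rose and 9.58% fell with arsenate, 10.8% and 13.7% with hypoxia, and 13.0% and 14.6% in the combination. With arsenate GR1 was the 1 of 7 that rose and none fell, with a median change of 0.09 against -0.01 over all genes. With hypoxia none rose and TAPX, the thylakoid ascorbate peroxidase, fell by 0.93 (adjusted p = 0.00569), with a median of -0.16 against 0.07. SAPX had a change of -0.41 there (adjusted p = 0.170) and passed as lower without hypoxia array 1 (-0.68, adjusted p = 0.0156). In the combination GR1 and MDAR2 rose and SAPX and TAPX fell, with a median of -0.10 against 0.09. The changes were -0.98 (adjusted p = 0.00358) for SAPX, the stromal ascorbate peroxidase, and -0.85 (adjusted p = 0.00780) for TAPX. TAPX had means of 3.03 with hypoxia and 3.11 in the combination, below or within the range of the arrays' first quartiles (3.06 to 3.18). The size of its falls is therefore uncertain. MDAR2, a monodehydroascorbate reductase, rose by 0.81 (adjusted p = 0.0175), a call lost without combination array 1 (0.0608) or combination array 2 (0.0604). Against arsenic alone the combination was lower in GR1 and in SAPX, which fell by 1.07 (adjusted p = 0.00519).

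CCS had a log2 signal of 7.32, 7.91 and 7.97 on the control arrays, a mean of 7.73 ± 0.36 (SD, n = 3). With arsenate it was 8.46, 8.61 and 8.83 (8.64 ± 0.19), with hypoxia 8.06, 8.27 and 8.03 (8.12 ± 0.13) and in the combination 8.31, 8.52 and 8.76 (8.53 ± 0.23, SD, n = 3 each). Control array 1 was the lowest of all, and the arsenic and combination arrays overlapped. CCS rose 1.87-fold with arsenate (log2 change 0.90, SE 0.19, interval 0.49 to 1.32, adjusted p = 0.00602) and 1.74-fold in the combination (0.80, interval 0.38 to 1.22, adjusted p = 0.00750). Its change with hypoxia was 0.39 (interval -0.02 to 0.81, adjusted p = 0.158), with the groups 0.063 apart. That change passed with the arrays re-centred (0.57, adjusted p = 0.0390).

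Between the treatments CCS did not pass. The combination differed from arsenic by -0.10 (interval -0.52 to 0.31, adjusted p = 0.795) and from hypoxia by 0.41 (interval -0.01 to 0.83, adjusted p = 0.272). Hypoxia differed from arsenic by -0.51 (interval -0.93 to -0.10, adjusted p = 0.0750), and this difference passed without control array 1 (adjusted p = 0.0415). Its group order was that of UPOX and GR1, but no pair of neighbours in it passed.

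Among 18 genes of superoxide dismutase and copper supply, CCS and AT3G56350 were the 2 measured. AT3G56350 had a change of 0.08 with arsenate (adjusted p = 0.787), rose by 0.97 with hypoxia (adjusted p = 0.000805) and had a change of 0.20 in the combination (adjusted p = 0.381). The list therefore had 1 rise in each comparison against control, of CCS with arsenate and in the combination and of AT3G56350 with hypoxia. Among all genes 8.34%, 10.8% and 13.0% rose with arsenate, hypoxia and both. The control signals of AT3G56350 were 2.98, 2.85 and 3.04, below the first quartile of every array (3.06 to 3.18). It was therefore not shown to be above background there, and the size of its rise with hypoxia, to a mean of 3.93, is uncertain. The list medians were 0.49, 0.68 and 0.50 with arsenate, hypoxia and both, against -0.01, 0.07 and 0.09 over all genes. The copper/zinc superoxide dismutase genes that CCS serves were not analysed here.

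MSRB9 was the 1 of the 5 genes that fell against control. Its log2 signal was 10.72, 10.24 and 10.34 on the control arrays, a mean of 10.43 ± 0.25 (SD, n = 3), and 8.02, 7.92 and 7.84 with arsenate, a mean of 7.93 ± 0.090 (SD, n = 3). With hypoxia the arrays spread widely, at 9.14, 8.12 and 7.15, a mean of 8.14 ± 1.00 (SD, n = 3). In the combination they were 8.02, 6.70 and 7.20, a mean of 7.31 ± 0.67 (SD, n = 3). All 9 treated arrays lay below the 3 control arrays, and the 3 treated groups overlapped.

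Against control the signal of MSRB9 fell to 0.177 of its level with arsenate (log2 change -2.50, SE 0.41, interval -3.40 to -1.60, adjusted p = 0.00121), the 56th largest fall. It also fell with hypoxia (-2.29, interval -3.19 to -1.39, adjusted p = 0.00160) and in the combination (-3.12, interval -4.02 to -2.22, adjusted p = 0.000122), in place the 142nd and the 104th. The treatments were not separated from one another. The combination differed from arsenic by -0.62 (interval -1.52 to 0.28, adjusted p = 0.400) and from hypoxia by -0.83 (interval -1.73 to 0.07, adjusted p = 0.302), and hypoxia differed from arsenic by 0.21 (interval -0.68 to 1.11, adjusted p = 0.753). In the order combination, arsenic, hypoxia, control, the last pair alone passed.

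**Figure D2:**
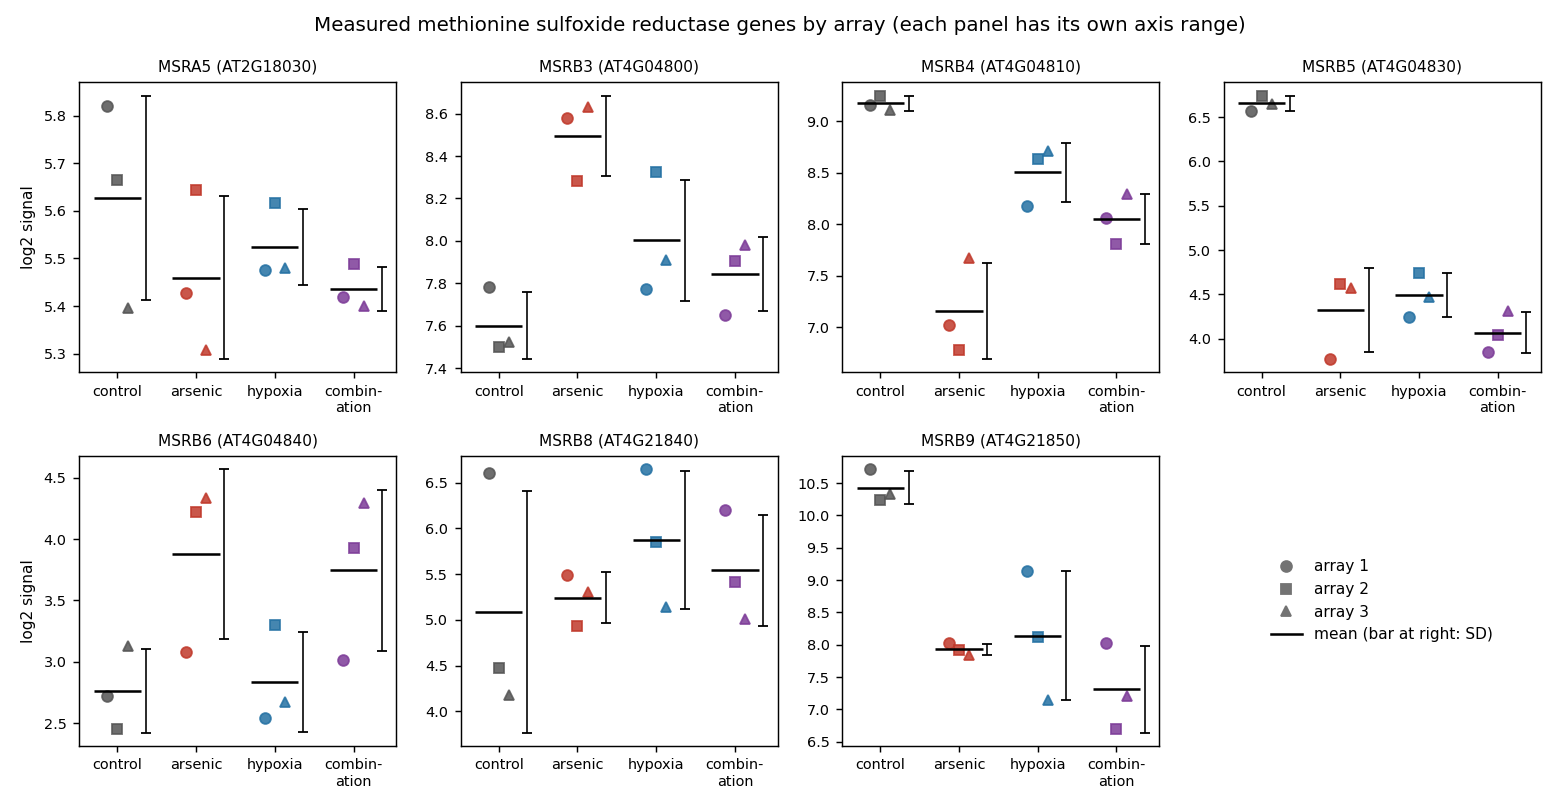
Log2 signal of the 7 measured methionine sulfoxide reductase genes on the 12 arrays, 1 panel per gene with its own vertical range, markers for arrays, and group means with SD (n = 3). MSRB9, MSRB5 and MSRB4 lie lower in each treated group than in the control, whereas MSRB3 is higher with arsenate and MSRA5 stays between 5.31 and 5.82.

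Of 14 methionine sulfoxide reductase genes 7 were measured, and they did not move as one. The A and B types reduce the opposite stereoisomers of methionine sulfoxide. With arsenate MSRB9, MSRB5 and MSRB4 fell, MSRB3 rose and 3 did not pass, with a median change of -0.17 against -0.01 over all genes. With hypoxia and in the combination the same 3 genes fell and none rose, with medians of -0.10 and -0.19 against 0.07 and 0.09. Among all genes 8.34% rose and 9.58% fell with arsenate, 10.8% and 13.7% with hypoxia, and 13.0% and 14.6% in the combination.

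MSRB5 had a log2 signal of 6.57, 6.74 and 6.65 in the control, 3.77, 4.62 and 4.57 with arsenate, 4.25, 4.74 and 4.47 with hypoxia, and 3.85, 4.04 and 4.32 in the combination. Every treated array lay below the controls. It fell in all of them, with changes of -2.33 with arsenate (adjusted p = 2.68e-05), -2.17 with hypoxia (adjusted p = 2.54e-05) and -2.58 in the combination (adjusted p = 3.87e-06).

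MSRB4 had a log2 signal of 9.16, 9.25 and 9.11 in the control, 7.02, 6.78 and 7.68 with arsenate, 8.17, 8.63 and 8.71 with hypoxia, and 8.06, 7.81 and 8.29 in the combination. The arsenic arrays were the lowest and did not overlap another group. It fell with arsenate (-2.01, adjusted p = 7.90e-05) and in the combination (-1.12, adjusted p = 0.00248). With hypoxia it fell by 0.67 (adjusted p = 0.0465), a call that was lost with the arrays re-centred (-0.49, adjusted p = 0.108) and without any 1 of control arrays 1, 2 and 3 (adjusted p = 0.0963, 0.127 and 0.0822), arsenic array 1 (0.0536), hypoxia arrays 1 and 2 (0.147 and 0.0668) or combination arrays 1 and 2 (0.0559 and 0.0513). The combination was higher than arsenic alone by 0.89 (adjusted p = 0.0215), a call lost without arsenic arrays 1 or 2 (0.0711 and 0.0878) or combination arrays 1 or 3 (0.0584 and 0.0718).

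MSRB3 had a log2 signal of 7.78, 7.50 and 7.52 in the control and 8.58, 8.28 and 8.63 with arsenate, and rose by 0.89 (adjusted p = 0.00361). It was named after its values were seen, as the 1 measured member that rose. MSRB6 had a change of 1.11 with arsenate (adjusted p = 0.0564), at log2 signals of 2.45 to 4.33, and passed without arsenic array 1 (1.51, adjusted p = 0.0148), combination array 1 (0.0337) or combination array 3 (0.0489). Its control mean, 2.77, was below the first quartile of every array (3.06 to 3.18). MSRB6 was therefore not shown to be above background there, and the size of its change is uncertain. MSRB8 had a control array far above the others, with log2 signals of 6.61, 4.48 and 4.18. Its change with hypoxia was 0.79 (adjusted p = 0.320) and passed without control array 1 (1.55, adjusted p = 0.0200).

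In the RefSeq annotation of assembly TAIR10.1, MSRB8 and MSRB9 are immediate neighbours on chromosome 4, between MSRB7 and MSRB2, with 0 genes between each pair. MSRB3, MSRB4, MSRB5 and MSRB6 form another run on chromosome 4, with 0 other protein-coding genes between them. The adjacent pair MSRB8 and MSRB9 had changes of 0.15 (interval -1.04 to 1.35) and -2.50 with arsenate. Close copies can bind each other's probes, and the part of this in these values was not tested.

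**Figure D3:**
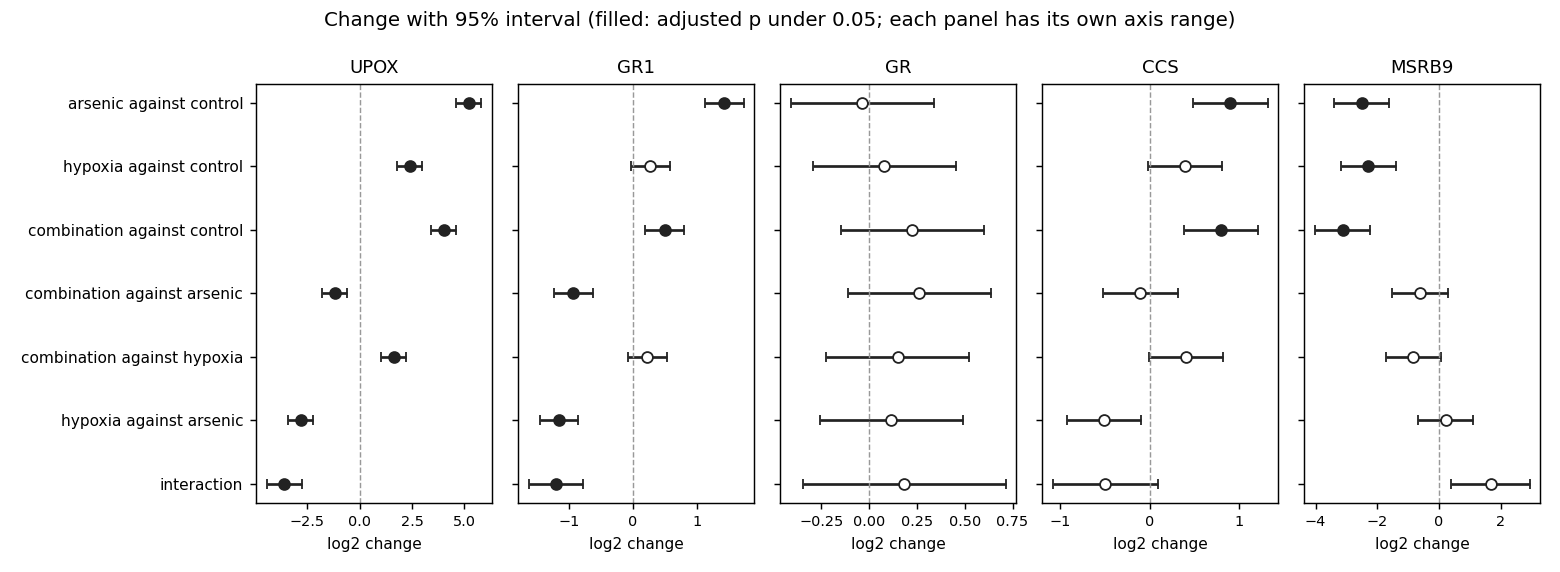
Log2 change of each of the 5 genes in the 6 comparisons and the interaction, with the 95% interval of the limma fit. Filled points passed an adjusted p of 0.05, and each panel has its own horizontal range, from 5.21 for UPOX with arsenate to -3.59 for the interaction of UPOX.

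The effect of arsenate was then compared between roots without and with hypoxia. For UPOX the change with arsenate was 5.21 without hypoxia and 1.62 with it, an interaction of -3.59 (SE 0.39, interval -4.44 to -2.74, adjusted p = 0.000685). For GR1 it was 1.43 and 0.22, an interaction of -1.20 (SE 0.20, interval -1.63 to -0.78, adjusted p = 0.00659). Both genes responded less to arsenate in hypoxic roots. Put as sums, the single changes against control add up to 7.60 for UPOX, where the combination gave 4.01, and to 1.70 for GR1, where it gave 0.50.

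The other 3 genes had no interaction that passed. For CCS the change with arsenate was 0.90 without hypoxia and 0.41 with it, an interaction of -0.50 (interval -1.09 to 0.09, adjusted p = 0.398). For MSRB9 it was -2.50 and -0.83, an interaction of 1.67 (SE 0.59, interval 0.40 to 2.94, adjusted p = 0.165). That interaction passed without hypoxia array 1, the highest of the hypoxia arrays (2.17, adjusted p = 0.0285). The single changes of MSRB9 add up to -4.79, where the combination gave -3.12. For GR the interaction was 0.18 (interval -0.35 to 0.71, adjusted p = 0.767).

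**Figure D4:**
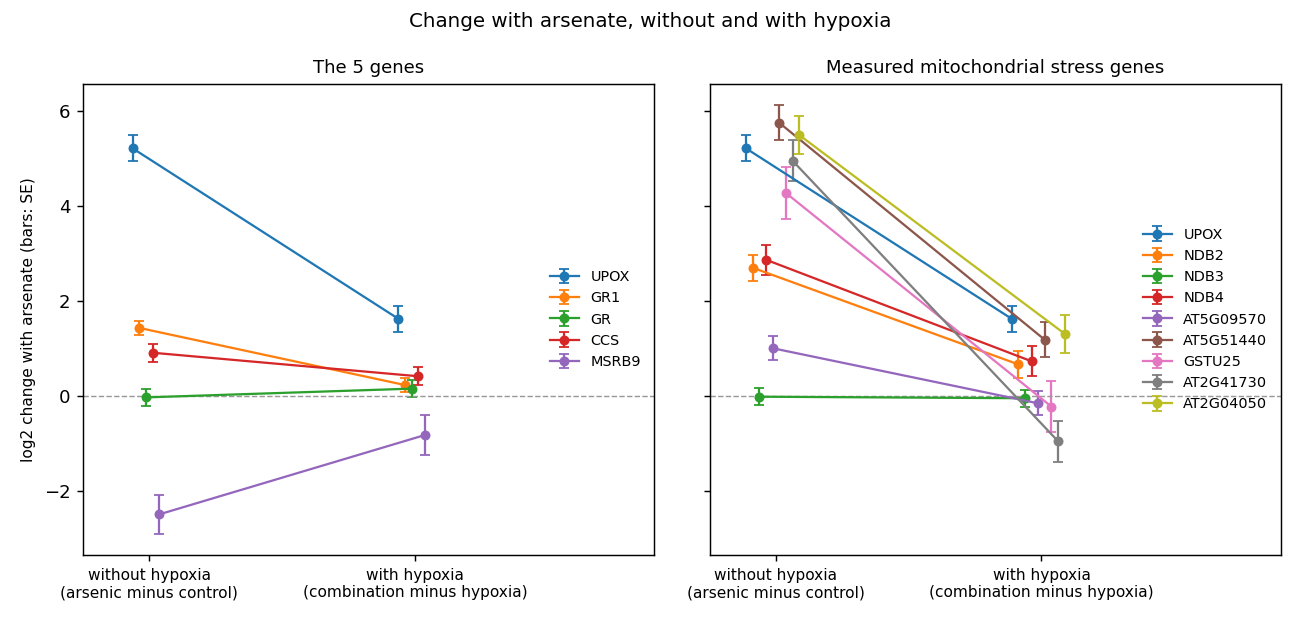
Log2 change with arsenate (bars: SE) without hypoxia, as arsenic minus control, and with hypoxia, as combination minus hypoxia, for the 5 genes on the left and the 9 measured genes of the mitochondrial stress list on the right. The lines for UPOX and GR1 slope from 5.21 to 1.62 and from 1.43 to 0.22.

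Other genes of the lists also had an interaction. Over all genes 1.34% of interactions passed as positive and 1.43% as negative. In the mitochondrial stress list 7 of 9 had a negative one and none a positive one, with a median of -3.59 against 0.01 over all genes. By size the first 3 were AT2G41730 at -5.91 (adjusted p = 0.000432), which rests on the low control signal given above, AT5G51440 at -4.58 (adjusted p = 0.000965) and GSTU25 at -4.50 (adjusted p = 0.00850). In the methionine sulfoxide reductase list MSRB5 (1.91, adjusted p = 0.00659) and MSRB4 (1.56, adjusted p = 0.0218) were positive and MSRB3 was negative (-1.05, adjusted p = 0.0409). The call of MSRB4 was lost without control array 2 (adjusted p = 0.0679), arsenic array 1 (0.0585) or combination array 3 (0.0570). That of MSRB3 was lost without any 1 of 9 arrays, namely control arrays 2 and 3 (0.114 and 0.101), arsenic arrays 1 and 3 (0.0940 and 0.118), hypoxia arrays 2 and 3 (0.0669 and 0.0513) and the 3 combination arrays (0.0730, 0.0800 and 0.0606).

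Genes whose signal ran most like that of each member were listed by Pearson r over the 12 arrays, among genes with a symbol and a range of group means of at least 0.5 of the member's own. Only 1805 of the 16550 genes had a symbol, so genes known by a locus code alone could not be listed, however alike. These r are descriptions, since the arrays fall into the same 4 groups. For UPOX, among 63 candidates, they were DREB2C (0.965), Hop3 (0.960) and Fes1A (0.947), a transcription factor and 2 co-chaperones of the heat stress response. DREB2C had group means of 3.98, 7.68, 6.06 and 7.24 in control, arsenic, hypoxia and combination, the same order as UPOX. For GR1, among 713 candidates, they were SDRB (0.959), NDB4 (0.948) and GSTL3 (0.946). GSTL3, a lambda class glutathione transferase, had group means of 6.94, 8.46, 7.05 and 7.25. For CCS, among 1146 candidates, they were PCME (0.922), TRM19 (0.899) and HSA32 (0.898). HSA32, a heat-stress-associated protein gene, had group means of 4.03, 6.35, 4.92 and 6.13. For MSRB9, among 207 candidates, they were XTH33 (0.950), UGT71C1 (0.943) and JAL34 (0.940). XTH33, of the cell wall xyloglucan endotransglucosylase/hydrolases, had group means of 6.98, 5.77, 5.43 and 5.38.

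**Figure D5:**
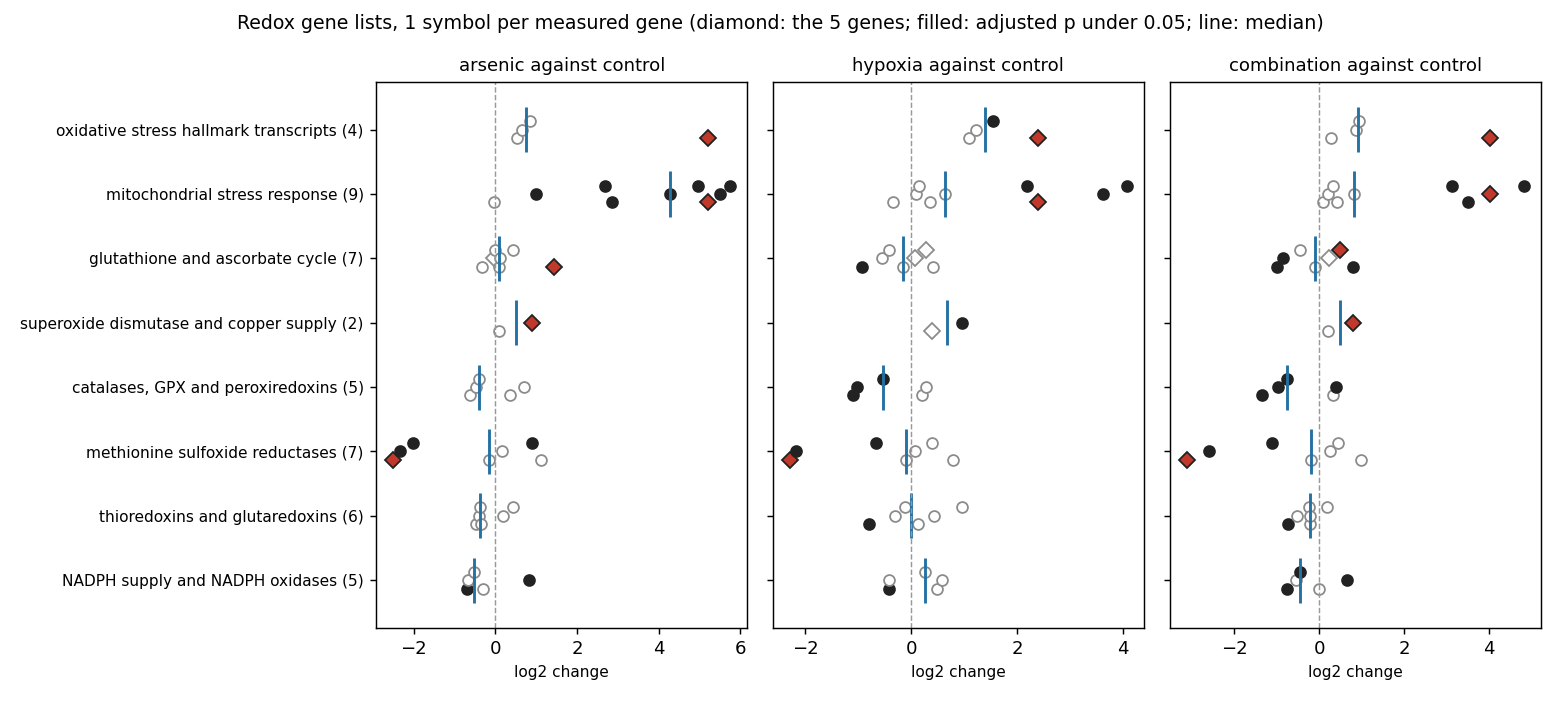
Log2 change against control of every measured gene in the 8 redox lists, in 1 panel per treatment, with diamonds for the 5 genes, filled symbols for genes that passed, a line at each list's median and a horizontal range of its own in each panel. The mitochondrial stress list has a median of 4.27 with arsenate. The list of catalases, glutathione peroxidases and peroxiredoxins, with no catalase or glutathione peroxidase measured, has a median of -0.76 in the combination.

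Of 21 catalases, glutathione peroxidases and peroxiredoxins 5 were measured, namely AT3G11630, AT1G60740, AT3G52960, PRXIIF and SRX. None of these is a catalase or a glutathione peroxidase. AT1G60740 had group means of 1.88 to 2.58, below the first quartile of every array (3.06 to 3.18), so no change of it could be read with confidence. With arsenate none of them passed, with a median change of -0.39 against -0.01 over all genes. AT3G11630 had a change of -0.62 (adjusted p = 0.0524) and passed without arsenic array 3 (-0.80, adjusted p = 0.0305) or hypoxia array 2 (adjusted p = 0.0487). With hypoxia 3 fell, with a median of -0.53 against 0.07, namely AT3G11630 (-1.10, adjusted p = 0.00194), AT3G52960 (-1.02, adjusted p = 0.00274) and PRXIIF, the mitochondrial peroxiredoxin (-0.53, adjusted p = 0.0432). The call of PRXIIF was lost with re-centred arrays (-0.35, adjusted p = 0.132) and without any 1 of control arrays 1, 2 and 3 (adjusted p = 0.138, 0.0798 and 0.0711), arsenic array 1 (0.0523) or hypoxia arrays 1 and 2 (0.0742 and 0.135). In the combination the same 3 fell and 1 rose, with a median of -0.76 against 0.09. Among all genes 8.34% rose and 9.58% fell with arsenate, 10.8% and 13.7% with hypoxia, and 13.0% and 14.6% in the combination. The changes were -1.34 for AT3G52960 (adjusted p = 0.000301), -0.98 for AT3G11630 (adjusted p = 0.00322) and -0.76 for PRXIIF (adjusted p = 0.00589). The rise was that of SRX, the sulfiredoxin, at 0.40 (adjusted p = 0.0464), and it was named after its values were seen. It also passed without hypoxia array 1 or 3, and it was lost when any of the other arrays was left out (adjusted p = 0.0504 to 0.156).

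Of 16 thioredoxins and glutaredoxins 6 were measured, and with arsenate none passed (median -0.37 against -0.01 over all genes). ROXY1 and ROXY2 had group means of 2.02 to 2.22 and 2.44 to 2.95, below the first quartile of every array (3.06 to 3.18). No change of these genes could be read with confidence. With hypoxia and in the combination 1 fell and none rose, with medians of 0.00 and -0.23 against 0.07 and 0.09. Over all genes 13.7% and 14.6% fell there. The gene that fell was TRXO1, a mitochondrial thioredoxin, with changes of -0.80 (adjusted p = 0.000892) and -0.72 (adjusted p = 0.00132). TRXO2, of the same type, passed as higher with hypoxia without control array 1 (0.55, adjusted p = 0.0365) or arsenic array 1 (adjusted p = 0.0394) and with re-centred arrays (0.62, adjusted p = 0.00727). GRX480 also passed as higher with hypoxia without control array 1 (1.99, adjusted p = 0.0304). Its signals on control arrays 1, 2 and 3 were 5.76, 3.07 and 2.35.

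Of 17 genes of NADPH supply and NADPH oxidases 5 were measured. Of all genes, 8.34% rose and 9.58% fell with arsenate, 10.8% and 13.7% with hypoxia, and 13.0% and 14.6% in the combination. With arsenate AT3G02360 rose (0.81, adjusted p = 0.0150) and AT4G25090 fell (-0.71, adjusted p = 0.0312), with a list median of -0.52 against -0.01 over all genes. With hypoxia CICDH, the cytosolic NADP-dependent isocitrate dehydrogenase, fell (-0.42, adjusted p = 0.0362), with a median of 0.25 against 0.07. In the combination AT3G02360 rose (0.65, adjusted p = 0.0293) and AT5G41670 (-0.77, adjusted p = 0.0350) and CICDH (-0.45, adjusted p = 0.0231) fell, with a median of -0.45 against 0.09. All 6 of these calls were lost on leaving out single arrays. With arsenate AT3G02360 was lost without control array 2 (adjusted p = 0.0552) or arsenic array 3 (0.0510), and AT4G25090 without control arrays 1, 2 or 3 (0.0605, 0.0961 and 0.0841) or arsenic arrays 1 or 3 (0.131 and 0.101). With hypoxia CICDH was lost without control arrays 1, 2 or 3 (0.0589, 0.105 and 0.0986), arsenic array 3 (0.0516) or hypoxia arrays 2 or 3 (0.104 and 0.0819). In the combination AT3G02360 was lost without control arrays 2 or 3 (0.0889 and 0.0759) or combination array 1 (0.115). AT5G41670 was lost there without control arrays 2 or 3 (0.111 and 0.109) or combination arrays 2 or 3 (0.139 and 0.0851), and CICDH without control arrays 2 or 3 (0.0732 and 0.0725) or combination arrays 1 or 2 (0.0586 and 0.0726). With re-centred arrays CICDH did not pass with hypoxia (-0.24, adjusted p = 0.177) or in the combination (-0.35, adjusted p = 0.0704), nor did AT5G41670 in the combination (-0.66, adjusted p = 0.0770), whereas AT3G02360 passed with hypoxia (0.76, adjusted p = 0.0161).

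Markers of tissue and treatment were set beside these results. In a list of 18 transcripts known to rise in low oxygen, all 9 measured rose with hypoxia (median 3.51) and 8 rose in the combination, whereas with arsenate 1 rose and 1 fell. Among all genes 8.34% rose and 9.58% fell with arsenate, 10.8% and 13.7% with hypoxia, and 13.0% and 14.6% in the combination. The 3 measured root markers of 22, the root hair genes EXPA7, EXPA18 and XTH26, had a summed linear signal of 384 to 502 in the control, 187 to 201 with arsenate, 62.1 to 136 with hypoxia and 44.2 to 80.2 in the combination. All 3 fell in each treatment. With arsenate the call of EXPA7 (-0.98) was lost without control array 2 or 3 (adjusted p = 0.0598 and 0.0544). That of EXPA18 (-1.21) was lost without control array 2 or 3 (0.0756 and 0.109) or arsenic array 1 or 2 (0.0958 and 0.0699). The 3 measured green tissue markers of 21, RCA, LHCB4.1 and PSAN, summed to 107 to 134, 91.3 to 93.0, 112 to 123 and 98.2 to 148. LHCB4.1, of the light-harvesting antenna, fell with arsenate (-0.72, adjusted p = 0.00831) and with hypoxia (-0.62, adjusted p = 0.0145), and its interaction was 1.26 (adjusted p = 0.0115). Its call with hypoxia was lost with re-centred arrays (-0.44, adjusted p = 0.0616) and without control array 2 (0.0652) or hypoxia array 3 (0.0515). PSAN, a photosystem I subunit, fell with arsenate (-0.76, adjusted p = 0.0497) and in the combination (-0.72, adjusted p = 0.0448). Both of its calls were lost with re-centred arrays (0.0595 and 0.0828) and on leaving out single arrays (highest adjusted p 0.179 and 0.173). RCA, the activase of Rubisco, rose with hypoxia (0.63, adjusted p = 0.0296), a call lost without control array 1 or 3 (0.101 and 0.0745) or hypoxia array 2 or 3 (0.0741 and 0.0758). Without combination array 3 it also passed in the combination (0.62, adjusted p = 0.0223). PSAN had means of 3.002 with arsenate and 3.04 in the combination, below the first quartile of every array (3.06 to 3.18). EXPA18 was at 2.64 on combination array 2, also below it. These 2 markers were not shown to be above background there. The size of the falls of PSAN, and of that of EXPA18 in the combination, is therefore uncertain. The part of a changed cell make-up in the values of the 5 genes was not tested. Correlations between arrays over all genes were 0.972 to 0.991 within groups and 0.924 to 0.982 between groups.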

How the data were processed

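Per the submitters' processing notes and the table's own values, the authors deposited log2 signals made by RMA in Affymetrix Expression Console (1.4 and 1.4.1) with Transcriptome Analysis Console 3.1, for 12 arrays of root RNA, 38408 rows each. RMA corrects background, normalizes between arrays and summarises probes. No scanner files were used here, so background limits per probe are unknown. The number of arrays limits the precision. The platform annotation listed 17481 rows, of which 16722 name 1 gene. After keeping the row of highest mean for the 146 genes with several, 16550 genes were tested, and 16574 rows matched RefSeq (TAIR10.1), used for names and gene order only. No genome build of the array is given in the sources used here.

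Group means were fitted with limma 3.58.1 (R 4.3.3) on all 12 arrays, and all p-values quoted are two-sided and Benjamini-Hochberg adjusted over all genes. The 5 genes and 11 lists were chosen with earlier results of these data known. All 5 genes are described, and from each list up to 3 genes that passed are named by size of change in each comparison, with further ones marked in the text. Alternatives were the replicate number as a block, array weights, trended and robust variances, re-centred or quantile-normalized arrays, the 2 groups alone, filters on dim genes, all rows, and each array left out. Promoters and proteins were not analysed here.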

Additional observations from a re-analysis of the deposited data

Results flagged for a closer look

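Over all 16550 genes, 457 passed limma's interaction test (adjusted p under 0.05), 1.34% as positive and 1.43% as negative. Leaving out 1 array gave 213 to 502. Among the 5 genes and the named genes of the redox lists, 11 passed. In each of these the change with arsenate differed between roots without and with hypoxia. Negative values mean a smaller or more negative change under hypoxia. Among the 5 redox genes these were UPOX, at -3.59, and GR1, at -1.20. In the mitochondrial stress list they were AT2G41730 at -5.91 (from a low control signal, as is that of AT2G04050), AT5G51440 at -4.58, GSTU25 at -4.50, AT2G04050 at -4.19 (adjusted p = 0.00255), NDB4 at -2.14 (0.0255) and NDB2 at -2.04 (0.0166). NDB4 was also low, with means of 3.11 in the control and 3.20 with hypoxia, near the first quartile of the arrays (3.06 to 3.18). GSTU25 lay below that quartile on control array 3 (2.75) and hypoxia array 3 (2.87). The interaction of NDB2 was not past the threshold without arsenic array 3 (0.0534). That of NDB4 was not without control array 2 (0.0766), arsenic arrays 1 or 3 (0.0640 and 0.0756), hypoxia array 2 (0.0525) or combination arrays 1 or 2 (0.0506 and 0.0668). In the methionine sulfoxide reductase list MSRB5 had a value of 1.91 and MSRB4 of 1.56, both genes falling less with arsenate under hypoxia, and MSRB3 had a value of -1.05.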

How the results depend on the processing

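Set against the alternatives, 711 values of the 5 genes' changes kept their direction and their side of the threshold, 8 reversed, 7 gained a call and 4 lost one. Leaving out 1 array at a time, the change of GR ranged from -0.147 to 0.0316 with arsenate, from -0.0796 to 0.22 with hypoxia and from -0.0434 to 0.25 for hypoxia against arsenic. CCS in the combination against arsenic ranged from -0.22 to 0.00557 and MSRB9 in hypoxia against arsenic from -0.29 to 0.71. None of these differences passed. Calls changed, over the same alternatives, for GR1 in the combination against control (0.38 to 0.61), UPOX in the combination against arsenic (-1.53 to -0.90), CCS in hypoxia against arsenic (-0.60 to -0.41) and the interaction of MSRB9 (1.18 to 2.17). With re-centred arrays GR1 (0.45) and CCS (0.57) passed in hypoxia against control. CCS in hypoxia against arsenic also passed with a replicate block (-0.51, adjusted p = 0.0408), array weights (-0.60, 0.0422) and dim genes removed (-0.51, 0.0487). The submitters describe the replicates as independent, so the replicate number was no block in the main fit. Of 18 same-numbered pairs, 6 had deviations correlated above 0.1 (-0.079 to 0.31), and 6 of 12 arrays correlated best with their own number. The highest values were those of hypoxia with combination for arrays 1 and 3 (0.31 and 0.29) and of control with hypoxia for arrays 1 (0.29). Whether same-numbered arrays share a source of variation was not tested. The block moved the number of genes called from 2965 to 3067 with arsenate and from 457 to 552 for the interaction, and changed no other call of the 5 genes. Counts of genes called moved with array weights to 4700 (arsenic against control), 3527 in place of 1986 (combination against arsenic) and 886 (interaction). With all rows they were 5113 (arsenic), 7517 in place of 4060 (hypoxia), 8437 in place of 4578 (combination), 3100 (combination against arsenic) and 7226 in place of 3638 (hypoxia against arsenic), as more rows were tested. The combination against hypoxia gave 573, but 885 among genes above the median row and 30 with the 2 groups alone. Leaving out 1 array gave 1889 to 3239 with arsenate (lowest without arsenic array 3), 1065 to 2197 for the combination against arsenic, 101 to 1000 for the combination against hypoxia (lowest without combination array 2, highest without combination array 1), 2168 to 3812 for hypoxia against arsenic and 213 to 502 for the interaction (lowest without control array 2). Causes were not tested. For named list genes that had passed, 1748 values kept their call, 160 lost it and none reversed, and this count leaves out calls gained by genes that had not passed. The block was among the settings that added calls, as for AT1G05340 in the combination (0.94, adjusted p = 0.0301) and with hypoxia (adjusted p = 0.00979), AT1G19020 (0.0189) and AT3G02360 (0.0280) with hypoxia, and it ended that of CICDH with hypoxia (0.0548).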
